A study of Sus scrofa with 4 samples.

Results

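This account describes 10 genes of fat cell formation and lipid storage in cultured pig wound fibroblasts. The genes were CEBPA, CEBPB, CEBPD and PPARG, which encode transcription factors of adipogenesis, the hormone gene ADIPOQ, and FABP3, FABP4, LPL, PLIN2 and PNPLA2, which act in fatty acid handling and lipid droplets. They were picked by name from 6765 genes that the array annotation ties to a probeset of a single gene. Where a gene had several such probesets, the brightest on average over the 4 arrays (mean log2 signal) stood for it. All 10 were on the array.

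Shallow and deep wounds were made on the backs of 2 Duroc pigs, and the wounds were biopsied at 20 weeks. Fibroblasts grown from the biopsies in medium with fetal bovine serum were taken at confluence, and their total RNA was hybridized to a porcine Affymetrix array. There were 2 shallow and 2 deep arrays, 1 of each per pig, named shallow 1 and deep 1 for pig 1, and shallow 2 and deep 2 for pig 2. Both depths shared breed, culture conditions and time, and no unwounded skin was among the samples. The pairing by pig follows the sample titles, read with the samples numbered in their listed order. The question is whether wound depth goes with a difference in these genes within an animal.

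In a preadipocyte, CEBPB and CEBPD are switched on early and help to induce PPARG and CEBPA, which then maintain each other and turn on fat cell genes. Those genes include ADIPOQ, the circulating hormone adiponectin, FABP4, the fatty acid carrier of fat cells, and LPL, the lipase that releases fatty acids from circulating lipoproteins. PLIN2 coats lipid droplets in most cell types, and PNPLA2, adipose triglyceride lipase, starts the breakdown of stored triglyceride. CEBPB and CEBPD also respond to inflammation and glucocorticoid in fibroblasts, and FABP3 carries fatty acids mainly in heart and skeletal muscle.

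All 4 arrays had the same trimmed mean signal, 250.1 in MAS5 intensity units, and they differed in quality measures. Hybridization controls read 1145 in shallow 1, 1326 in shallow 2, 1579 in deep 1 and 3880 in deep 2. The 3' to 5' ratio of actin probesets, which rises with RNA breakdown or incomplete labelling, was 1.96 in shallow 1, 2.41 in shallow 2, 3.28 in deep 1 and 6.10 in deep 2. Fibroblast RNA was present in each culture, as 11 of 11 fibroblast markers were above the absent controls on every array. This does not exclude other cell types. Absent controls are 23 probesets for sequences that should not be in the sample, and the highest of them read 14.8 in shallow 1, 13.6 in shallow 2, 21.8 in deep 1 and 30.9 in deep 2. Epithelial markers stood out on a single array. The summed signal of 9 epithelial genes was 5808 in shallow 1, against 284 in shallow 2, 360.4 in deep 1 and 214 in deep 2.

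The early factors, the lipase PNPLA2 and CEBPA read higher on both deep arrays than on both shallow arrays. PPARG, ADIPOQ, FABP4 and LPL were dim on average, and PPARG was above the absent controls in shallow 1 alone, at 49.3. Of the 10 genes, 6 passed the filter on dim probesets, a mean log2 signal equal to a signal of 27.1, and the same 6 were above the absent controls on all 4 arrays, as 56.8% of all 23999 probesets were. These were CEBPA, CEBPB, CEBPD, FABP3, PLIN2 and PNPLA2. None of the 6 passed an adjusted p of 0.05 in limma with the pig as a block (smallest adjusted p = 0.224), a threshold that 0.34% of 14399 probesets passed. At an unadjusted p under 0.05 in limma there were 2 of the 6, CEBPA and PNPLA2, beside 1995 of all 14399 probesets. Both deep arrays lay above both shallow arrays for 4 of the 6, where 23.2% of all probesets did so, and 0 of the 6 lay below, where 25.5% of all probesets did. The median log2 difference of the 6, deep minus shallow, was 0.62, and that of all probesets tested was -0.02. In these cultures a change in the share of a cell type and a change in RNA per cell cannot be told apart.

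**Figure D1:**
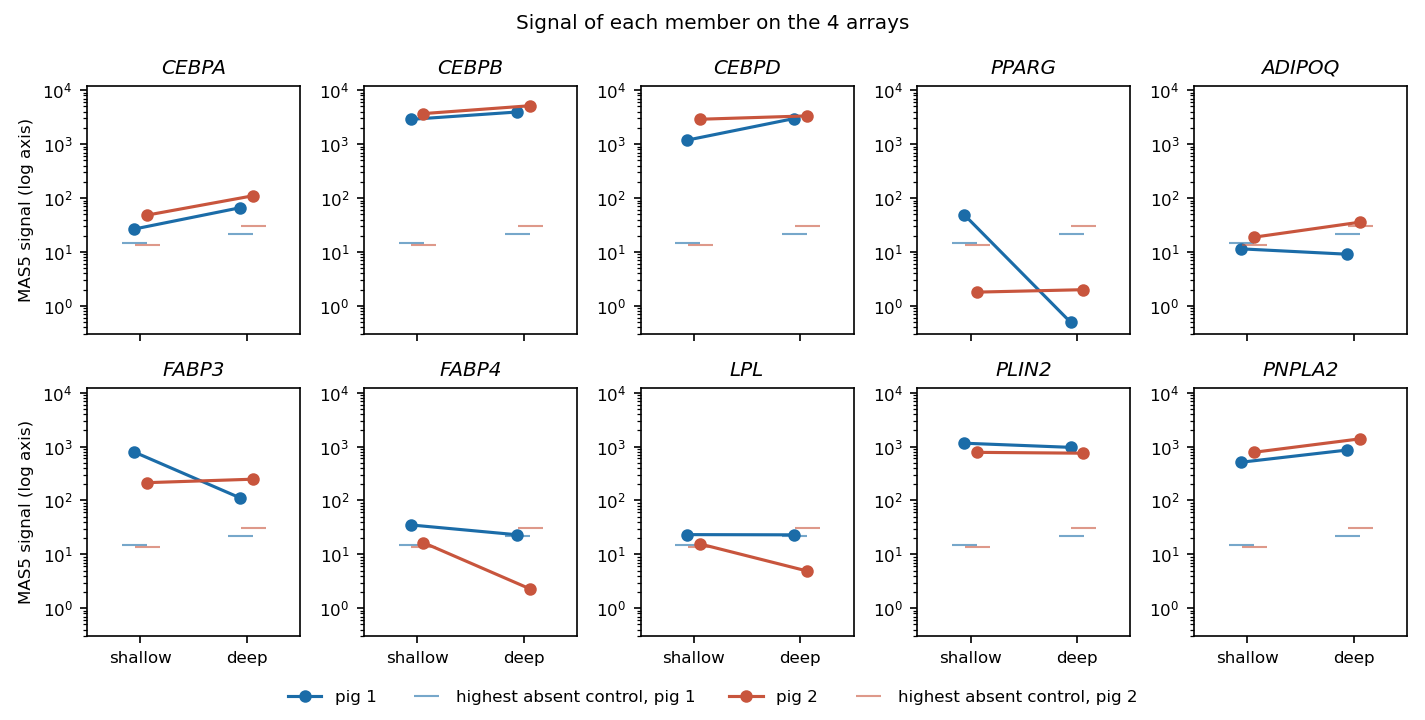
MAS5 signal (log axis) of the 10 genes on the shallow and deep arrays, with a line for each pig and short bars at the highest absent control of each array. CEBPA, CEBPB, CEBPD and PNPLA2 slope upward in both pigs, and PPARG, FABP4, LPL and ADIPOQ lie near or below the bars, apart from PPARG and FABP4 in shallow 1, at 49.3 and 35.1.

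CEBPB, the early factor that also drives inflammatory genes, was bright on every array. Its signal was 2886 in shallow 1, 3693 in shallow 2, 3952 in deep 1 and 5162 in deep 2. Both deep values were above both shallow values, and the pigs had nearly equal differences, 0.45 and 0.48 on the log2 scale. The mean of 3289 ± 571 in shallow stood against 4557 ± 855 in deep (SD, n = 2). The mean log2 difference was 0.47 ± 0.27 (SE), with a 95% interval of -0.16 to 1.10 (limma, adjusted p = 0.498). After quantile normalization the difference was 0.25 and the groups overlapped, at 3901 in shallow 2 and 3866 in deep 1.

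CEBPD, the other early factor, had 3 probesets. The brightest read 1191 in shallow 1, 2900.1 in shallow 2, 2984 in deep 1 and 3344 in deep 2. The array shallow 1 stood apart, and the other 3 arrays lay close together, so that the log2 difference was 1.32 in pig 1 and 0.21 in pig 2. The mean difference was 0.77 ± 0.33 (95% interval -0.0042 to 1.53; limma, adjusted p = 0.362), and it was 0.12 without shallow 1. The groups overlapped after quantile normalization, at 2977 in shallow 2 and 2943 in deep 1.

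In the dimmer CEBPD probesets the deep values were again above all shallow values, with larger differences. The second read 196 in shallow 1, 691 in shallow 2, 842 in deep 1 and 1174 in deep 2, a log2 difference of 1.43 ± 0.36 (limma, adjusted p = 0.141). The third read 55.4 in shallow 1, 111 in shallow 2, 116 in deep 1 and 413 in deep 2, a log2 difference of 1.48 ± 0.36 (limma, adjusted p = 0.133). Pig 1 had the larger difference by the second probeset, 2.10 against 0.76, and pig 2 by the third, 1.90 against 1.06. All 3 probesets thus had the same sign in both pigs, but they differed in which pig showed more.

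CEBPA, the factor that maintains the fat cell state together with PPARG, was dim but measured. Its brightest probeset read 26.6 in shallow 1, 48.2 in shallow 2, 66.4 in deep 1 and 111 in deep 2. Deep was 2.50-fold higher than shallow in pig 1 and 2.30-fold higher in pig 2, the only member among the 6 that was at least 2-fold higher in both pigs, as 2.19% of all probesets were. None of the 6 was at least 2-fold lower in both, where 1.63% of all probesets were. The mean log2 difference was 1.26 ± 0.40 (95% interval 0.34 to 2.18; limma, adjusted p = 0.224), larger in size than those of 94.4% of all probesets tested. A second CEBPA probeset was not above the absent controls on any array, at 5.17 to 8.86, and had opposite signs in the pigs. The mean of both probesets differed by 0.48, so the result for CEBPA rests on 1 probeset.

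PNPLA2, adipose triglyceride lipase, read 511 in shallow 1, 781 in shallow 2, 862 in deep 1 and 1389 in deep 2. Both deep arrays were above both shallow arrays. Deep was 1.69-fold higher in pig 1 and 1.78-fold higher in pig 2, so the pigs were closely alike. The mean log2 difference was 0.79 ± 0.26 (95% interval 0.18 to 1.40; limma, adjusted p = 0.239). The dimmer PNPLA2 probeset, at 5.98 to 28.2, was above the absent controls on the shallow arrays alone and had opposite signs in the pigs. The mean of both PNPLA2 probesets differed by 0.09 ± 0.42 (limma, adjusted p = 0.954).

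CEBPA, CEBPB, CEBPD and PNPLA2 also shared a full order over the 4 arrays. Each was lowest in shallow 1, followed by shallow 2, deep 1 and deep 2. This order held for 4 of the 6 measured genes and for 11.8% of all probesets, a count made after the values were seen. The hybridization controls, the 28S ribosomal RNA signal (1351, 1836, 3462 and 7621 in that order of arrays) and the actin 3' to 5' ratio had the same order. Marker sums also differed by depth. The 5 smooth muscle and pericyte markers summed to 654 in shallow 1, 1148 in shallow 2, 4696 in deep 1 and 3410 in deep 2. Most of the deep sums came from ACTG2, smooth muscle gamma actin, at 4269 and 2914, against 492 in shallow 1 and 717 in shallow 2. DES, CNN1 and HIGD1B also read higher in deep in both pigs. RGS5 had opposite signs in the pigs, at 50.7 in shallow 1, 336 in shallow 2, 187 in deep 1 and 218 in deep 2. The 11 fibroblast markers summed to 35359, 43749.8, 61094 and 84756 in the same order of arrays. The part of these controls and markers in the differences of the 4 genes was not tested.

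**Figure D2:**
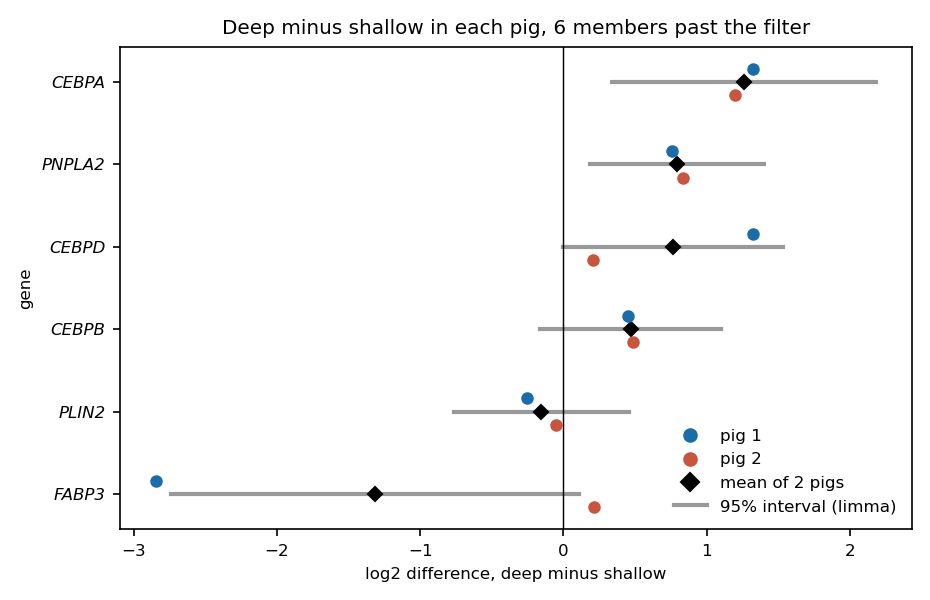
Log2 difference, deep minus shallow, of the 6 genes past the filter, with a circle for each pig, a diamond for the mean and a bar for the 95% interval of limma. The pigs lie together for CEBPA, PNPLA2, CEBPB and PLIN2 and apart for CEBPD (1.32 and 0.21) and FABP3 (-2.84 and 0.22).

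FABP3, the muscle-type fatty acid carrier, had the least agreement between pigs of the 6 genes past the filter. It read 795 in shallow 1, 213 in shallow 2, 111 in deep 1 and 248 in deep 2. The array shallow 1 was 3.21-fold above the next highest array, and the groups overlapped. Shallow was 7.17-fold higher than deep in pig 1, while in pig 2 deep was 1.16-fold higher than shallow. The mean log2 difference was -1.31 ± 0.62 (95% interval -2.74 to 0.11; limma, adjusted p = 0.400), and it was -0.37 without shallow 1 and -2.26 without shallow 2. The array shallow 1 is the one with the high epithelial markers, on which 9 of 9 were above the absent controls. On the other arrays 4 of 9 were above them in shallow 2, 5 in deep 1 and 3 in deep 2. CDH1, the adhesion molecule of epithelial cells, read 1084 in shallow 1 and at most 17.7 on the other arrays. The part of the epithelial markers in the FABP3 signal was not tested.

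PLIN2, the droplet coat protein found in most cell types, was similar on all arrays. It read 1152 in shallow 1, 779 in shallow 2, 965 in deep 1 and 752 in deep 2. The groups overlapped, and the arrays of pig 1 were above those of pig 2 at both depths. The mean log2 difference was -0.15 ± 0.27, and its 95% interval of -0.77 to 0.46 did not reach a 2-fold difference in either direction (limma, adjusted p = 0.844). The sign for PLIN2 was not settled, as its difference was 0.13 without shallow 1. The mean difference of the lipase PNPLA2 was 0.79, and the difference between the 2 genes was not tested.

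The remaining 4 genes, PPARG, ADIPOQ, FABP4 and LPL, fell below the filter and were not tested. PPARG, the central regulator of fat cell formation, read 49.3 in shallow 1, 1.80 in shallow 2, 0.495 in deep 1 and 2.00 in deep 2. PPARG was above the absent controls in shallow 1 alone, the array with the high epithelial markers, whose part in this signal was not tested. ADIPOQ read 11.4 in shallow 1, 18.8 in shallow 2, 9.08 in deep 1 and 35.7 in deep 2, above the absent controls in pig 2 at both depths and in pig 1 at neither. No fold is given for genes at this level.

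FABP4 read 35.1 in shallow 1, 16.5 in shallow 2, 23.0 in deep 1 and 2.29 in deep 2. LPL read 23.2 in shallow 1, 15.5 in shallow 2, 23.0 in deep 1 and 4.93 in deep 2 by its brighter probeset. Each was above the absent controls on every array but deep 2, by the widest margin for FABP4 in shallow 1, at 35.1 against 14.8. The dimmer LPL probeset exceeded them in shallow 1 alone, at 26.8, with 11.4, 10.8 and 8.18 on the others. Among the 6 genes past the filter, FABP3 and PLIN2 were highest in shallow 1, and 32.3% of all probesets past the filter were highest there, a share close to 2 of 6. Of all 10 members, 5 were highest in shallow 1, the others being PPARG, FABP4 and LPL. The share over probesets past the filter does not cover these dim genes.

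**Figure D3:**
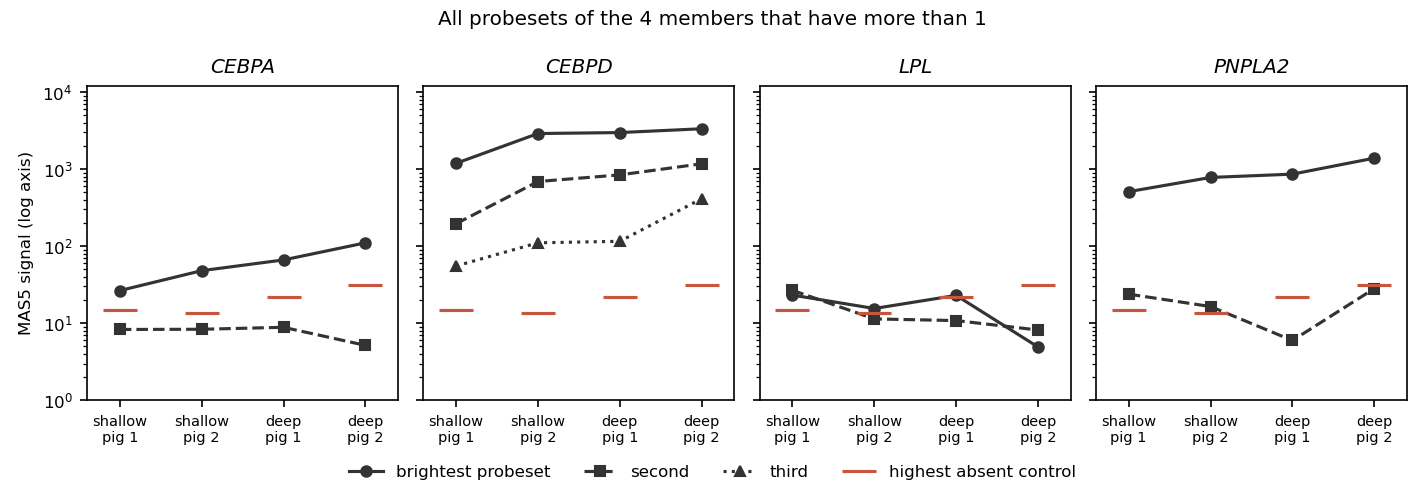
MAS5 signal (log axis) of every probeset of the 4 genes with more than 1, by array, with bars at the highest absent control; lines only join the values of a probeset. The 3 CEBPD probesets all have both deep arrays above both shallow arrays, while the dimmer probesets of CEBPA, LPL and PNPLA2 lie at or near the bars.

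Genes that define the mature fat cell differed in level. Of 10 adipocyte markers 6 were measured, and their summed signal was 605 to 728 on the shallow arrays and 551 to 763 on the deep arrays. Most of it came from CFD, the complement protease adipsin, which read 622 in shallow 1, 515 in shallow 2, 454 in deep 1 and 655 in deep 2. CFD and LEP, the leptin gene, were above the absent controls on all 4 arrays, LEP at 37.9 to 61.2. LIPE, hormone-sensitive lipase, was above the absent controls on 1 array and GPD1, which makes glycerol phosphate, on none.

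Blood and vessel cells also use FABP4, LPL and PPARG, and their markers were measured beside those of fat cells. Of 10 leukocyte markers, 1 was above the absent controls on every array, the monocyte receptor CD14, and 4 were above on none. Their summed signal was 157 to 184 on the shallow arrays and 143 to 199 on the deep arrays. The brightest of them in shallow 1 was AIF1, at 79.3 there, 14.6 in shallow 2, 25.1 in deep 1 and 6.64 in deep 2. Its part in the signals of PPARG, FABP4 and LPL was not tested. Of 9 endothelial markers, 3 were above on every array, with a sum of 357 to 818 in shallow and 399 to 524 in deep, while CDH5, KDR, TEK and TIE1 were above on none. The highest endothelial signal was 601 for PECAM1 in shallow 1, the array with the epithelial markers.

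The wider pathway was described with 7 lists of other genes, 150 in all, of which 96 were on the array and 65 passed the filter. In limma 0 of the 65 passed the adjusted threshold in either direction (smallest adjusted p = 0.0967). An unadjusted p under 0.05 was found for 8 of the 65, beside 1995 of all 14399 probesets. Without shallow 2 and the block, 10 passed, in a fit that called 11.1% of all probesets. Both deep arrays were above both shallow arrays for 17 and below for 15, against 23.2% and 25.5% of all probesets. The median log2 difference of the 65 was 0.05.

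Among regulators that promote adipogenesis, 17 passed the filter, with a median log2 difference of 0.37. KLF9, a glucocorticoid-induced factor, read 820 in shallow 1, 1580.4 in shallow 2, 1844 in deep 1 and 1851 in deep 2 (0.70 ± 0.31, limma, adjusted p = 0.376). The morphogen gene BMP7 went the other way, with 201 in shallow 1, 139 in shallow 2, 92.8 in deep 1 and 45.6 in deep 2 (-1.36 ± 0.35, limma, adjusted p = 0.152). NFIB, a nuclear factor I gene, also read lower in deep, at 24.2 in deep 1 and 58.5 in deep 2 against 104 in shallow 1 and 62.4 in shallow 2 (-1.10 ± 0.54). RXRA, the partner of PPARG on DNA, was dim and read 29.1 in shallow 1, 32.1 in shallow 2, 33.7 in deep 1 and 55.8 in deep 2 (0.50 ± 0.46), and is named outside the rule because it pairs with PPARG.

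The list of repressors of adipogenesis had 11 genes past the filter and a median of 0.05. DDIT3, which encodes CHOP, a stress-induced relative of the CEBP factors that blocks their binding to DNA, read 235 in shallow 1, 434 in shallow 2, 724 in deep 1 and 733 in deep 2. Both deep arrays were above both shallow arrays, with a log2 difference of 1.19 ± 0.31 (limma, adjusted p = 0.156). BHLHE40, a transcriptional repressor, read 79.0 in shallow 1, 76.8 in shallow 2, 211 in deep 1 and 112 in deep 2 (0.98 ± 0.37), while TWIST2, a mesenchymal repressor, read lower in deep (-0.51 ± 0.27).

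Lipid droplet coat and assembly genes, 6 past the filter, had a median of 0.01. The largest differences were 0.49 for BSCL2, the seipin gene, -0.26 for AUP1 and 0.19 for the droplet GTPase RAB18. The list of lipolysis had 4 genes past the filter. LIPA, the lysosomal acid lipase, differed by 0.55, the receptor ADRB3 by 0.35 and ABHD5, the coactivator of PNPLA2, by -0.27. ABHD5 read 143 in shallow 1, 114 in shallow 2, 123 in deep 1 and 90.5 in deep 2, so its groups overlapped while those of PNPLA2 did not.

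Triglyceride synthesis had 14 genes past the filter, 1 with both deep arrays above both shallow arrays and 4 with both below, beside 23.2% and 25.5% of all probesets, and a median of -0.17. AGPAT5, an acyltransferase, read 1056 in shallow 1, 698 in shallow 2, 584 in deep 1 and 372 in deep 2 (-0.88 ± 0.27, limma, adjusted p = 0.204). GK, glycerol kinase, read 371 in shallow 1, 1942 in shallow 2, 1615 in deep 1 and 2078 in deep 2 (1.11 ± 0.45), with the low value in shallow 1. ACSL4, which activates long-chain fatty acids, differed by 0.65 ± 0.30, with 5263 in shallow 1, 5987 in shallow 2, 7009 in deep 1 and 11129 in deep 2.

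Fatty acid uptake and binding had 6 genes past the filter, with a median of -0.47. FABP5, the epidermal relative of FABP3 and FABP4, read 380.2 in shallow 1, 91.9 in shallow 2, 77.3 in deep 1 and 36.2 in deep 2. Its difference was -1.82 ± 0.38 (limma, adjusted p = 0.0967), and like FABP3 it was brightest in shallow 1. GOT2, a mitochondrial aminotransferase also described at the cell surface as a fatty acid binding protein, differed by -0.95 ± 0.27, and the lipoprotein receptor VLDLR by 0.83 ± 0.41.

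Adipokines and their receptors had 7 genes past the filter and a median of 0.02. RARRES2, the secreted protein chemerin, read 35.3 in shallow 1, 42.2 in shallow 2, 127 in deep 1 and 133 in deep 2. It was the only gene of the 65 that was at least 2-fold higher in deep in both pigs, while BMP7 and FABP5, 2 in all, were at least 2-fold lower. These counts stood beside 2.19% and 1.63% of all probesets. RARRES2 had a log2 difference of 1.75 ± 0.38 (limma, adjusted p = 0.0973). The adiponectin receptors ADIPOR1 and ADIPOR2, named outside the rule as partners of ADIPOQ, differed by 0.02 and 0.06, LEP by 0.30 ± 0.44 and the adiponectin-binding cadherin CDH13 by -0.62 ± 0.33. Chemerin and CHOP thus had the largest mean excess in deep among the 65 genes past the filter.

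**Figure D4:**
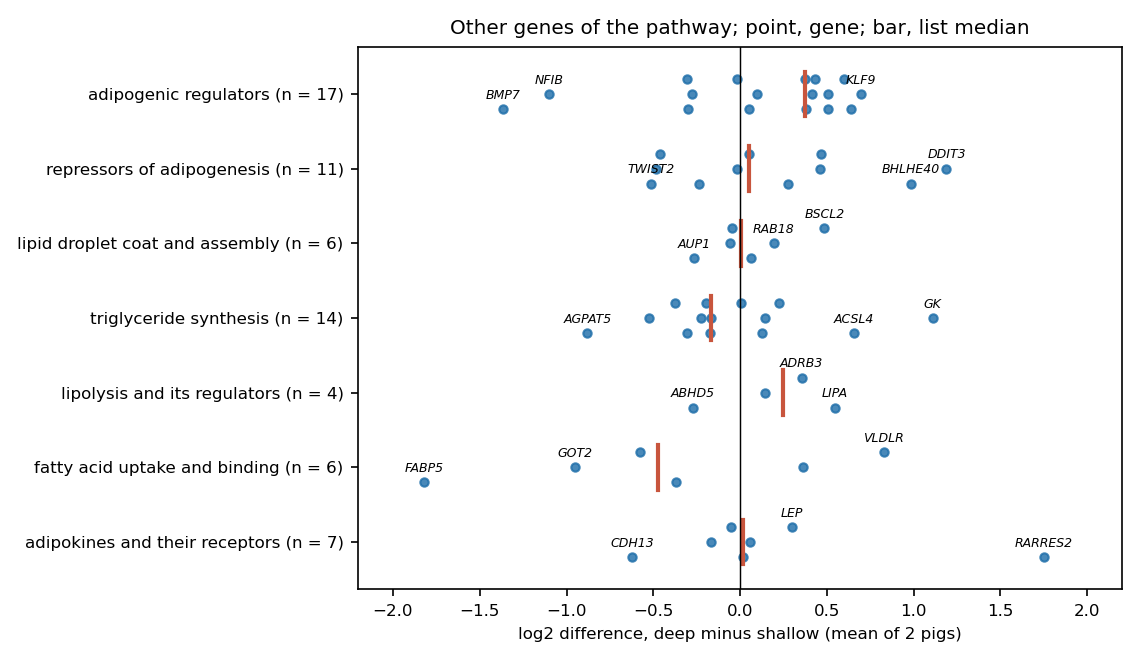
Mean log2 difference over both pigs, deep minus shallow, of the 65 other pathway genes past the filter, with a point for each gene, a bar at each list's median and names on the 3 largest differences of each list. Medians run from -0.47 for fatty acid uptake to 0.37 for adipogenic regulators, and no gene passed the adjusted threshold.

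Calls on the members changed when shallow 2 was left out. With shallow 2 left out and no block, 4 of the 6 genes passed an adjusted p of 0.05 in limma, namely CEBPA (1.69), CEBPD (1.41), FABP3 (-2.26) and PNPLA2 (1.10), in a fit that called 11.1% of all probesets. That fit takes the shallow level from shallow 1, the array with the high epithelial markers, whose spread is assumed to equal that of the deep arrays. Fits without shallow 1, deep 1 or deep 2 also left 1 array in a group. Whether members passed in them cannot be read as a result about the members. Without shallow 1, CEBPA differed by 0.83, PNPLA2 by 0.49 and CEBPB by 0.29, and without deep 2 PNPLA2 differed by 0.45 and CEBPB by 0.28.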

How the data were processed

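Total RNA of 4 fibroblast cultures was measured on 1 array each. The authors deposited 1 linear MAS5 intensity per probeset and array; GCOS 1.0 and MAS5 are the tools in the submitters' processing notes. The scaling target and detection calls are not given in the sources used here. Precision is limited by the number of arrays.

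Control probesets, 124 in all, were left out, signals under 1 were set to 1, and log2 values were taken. The filter dropped probesets whose mean log2 signal was under the 40th percentile and left 14399 of 23999. Deep and shallow arrays were compared with limma 3.58.1 in R 4.3.3 (lmFit, eBayes with trend, pig as a block) and Benjamini-Hochberg adjustment over all probesets kept. Folds are on the floored log2 scale. The pairing comes from the series' design; across probesets, the deviations of a pig's shallow and deep array from the mean of their depth correlated at -0.01.

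The planned absent controls included poly-A control transcripts of dap, lys, phe and thr. These read up to 1108, so the Tag and trp controls, 23 probesets, were used alone. Named genes were the members and, of each list, the 3 genes with the largest absolute difference past the filter, with RXRA, ADIPOR1, ADIPOR2 and the genes below the filter added outside this rule. Members and lists were chosen with earlier results of these data known. Alternatives were no block, no filter, a floor of 16, quantile normalization, median centring, the mean of a gene's probesets and leaving out each array.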

Additional observations from a re-analysis of the deposited data

How the results depend on the processing

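The counts of genes past the threshold, 0 of 6 members and 0 of 65 pathway genes, were 0 under each of the other processing settings. Without the pig as a replicate block they were 0 and 0 (limma, smallest adjusted p = 0.326 and 0.176). That fit and the fit without the filter called 0 of all probesets (limma, smallest adjusted p = 0.0597 and 0.0913). In those 2 fits the counts for members and pathway genes could not differ from 0. A fit with 1 array left out has 1 array in a group, so counts from it are not read as a result about these genes. The 4 members with both deep arrays above both shallow arrays became 2 after quantile normalization (CEBPA and PNPLA2 remained), and 2 with the mean of a gene's probesets (CEBPB and CEBPD remained), where CEBPA fell below the filter. The count at least 2-fold higher in both pigs then went from 1 to 0. PLIN2 changed sign, its difference running from -0.44 without shallow 2 to 0.13 without shallow 1, with 0.03 without deep 2. CEBPA, CEBPB, CEBPD and PNPLA2 had a positive and FABP3 a negative difference under all 10 alternatives, but sizes moved. The mean of a gene's probesets took PNPLA2 from 0.79 to 0.09, CEBPA from 1.26 to 0.48 and CEBPD from 0.77 to 1.23, and quantile normalization took CEBPB from 0.47 to 0.25. With 1 array left out CEBPA ran from 0.83 to 1.69, CEBPB from 0.28 to 0.66, CEBPD from 0.12 to 1.41, PNPLA2 from 0.45 to 1.14 and FABP3 from -2.26 to -0.37. Signals below the absent controls have no usable order.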

Other observations

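Some pathway genes below the filter are given as values, chosen after they were seen. APOE, an apolipoprotein of lipid-laden and many stromal cells, read 4.95 in shallow 1, 15.0 in shallow 2, 48.4 in deep 1 and 56.4 in deep 2. It was above the absent controls on both deep arrays and, narrowly, in shallow 2, where the highest control read 13.6. PPARGC1A, the coactivator of PPARG that drives mitochondrial genes, read 23.3 in shallow 1, 78.5 in shallow 2, 18.1 in deep 1 and 2.44 in deep 2, above the absent controls on the shallow arrays alone. METTL7B, a lipid droplet protein, read 42.1 in deep 2 and at most 2.87 on the others.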
